A study of Mus musculus with 6 samples.

Results

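Notch signalling was examined through 10 genes: the receptors Notch1, Notch2 and Notch3, the ligands Jag1 and Dll1, the protease Adam10, the nuclear factor Rbpj, the pathway inhibitor Numb, and the direct targets Hes1 and Nrarp. Their probes were chosen by gene symbol alone, as every probe to which the platform annotation gives 1 of these symbols and no other. This found 13 of the 21888 probes on the array, for 7 of the 10 genes. No probe was listed under Notch3, Jag1 or Dll1, so these 3 genes were not analysed here. Of the 13 probes, 12 had a value on at least 4 of the 6 arrays and were tested.

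The Notch pathway passes a signal between touching cells. A ligand on one cell binds a Notch receptor on its neighbour, Adam10 and then gamma-secretase cut the receptor, and the freed intracellular part joins Rbpj in the nucleus and switches on targets such as Hes1 and Nrarp. In the embryonic pancreas, Notch acting through Hes1 is known for keeping progenitors undifferentiated by repressing Neurog3, the factor that starts endocrine differentiation.

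Each array compared RNA from the pancreas of Sox4-/- mouse embryos, homozygous for a knockout of the transcription factor Sox4, with RNA from the pancreas of wild-type littermates, all at embryonic day 12.5. The labels name no treatment, no promoter-driven allele and no strain. Wild-type RNA was in channel 1 and knockout RNA in channel 2 of all 6 arrays, per the labels. Tissue was pooled in 2 groups before RNA isolation and the RNA was amplified, per the labels of arrays 1 and 2, while the labels of arrays 3 to 6 do not describe the preparation. Values are log2 ratios, read as knockout over wild type. This direction is only likely, because it rests on the channel order and the titles, and neither dyes nor direction are given in the sources used here. The arrays may be repeats of 1 pair of pools, so the error behind each p-value is that between arrays, perhaps technical only, and not that between embryos. A dye or channel bias of a probe and a difference between the RNAs cannot be told apart.

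The table gives ratios and no levels, so neither the tissue label nor the abundance of any gene could be checked. On each array 439 to 1654 probes lacked a value, and the number of arrays limits the precision. Spearman's rho across all probes was 0.519 between arrays 1 and 2, 0.438 to 0.583 among arrays 3 to 6, and 0.0558 to 0.32 between these sets. For this reason, means within each set are given beside the main results.

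Of the 12 tested Notch probes, 1 was past an adjusted p of 0.05 (limma moderated test against 0, Benjamini-Hochberg over all probes), a probe of Nrarp with a mean under 0. Of all 21247 tested probes, 5.49% were past it in either direction, 1.96% above 0 and 3.53% under 0. The single member call therefore lies near the share among all probes. Among all probes 416 passed above 0 and 750 under 0, but 849 and 409 without centring, and 1298 and 491 with quantile normalization. An unadjusted limma p under 0.05 was found for 5 of the 12 Notch probes, against 27.6% of all probes. The median absolute mean of the Notch probes was 0.21 on the log2 scale, against 0.20 over all probes. No tested Notch probe had a mean of 0.5 or more in size, a size reached by 15.3% of all tested probes.

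**Figure D1:**
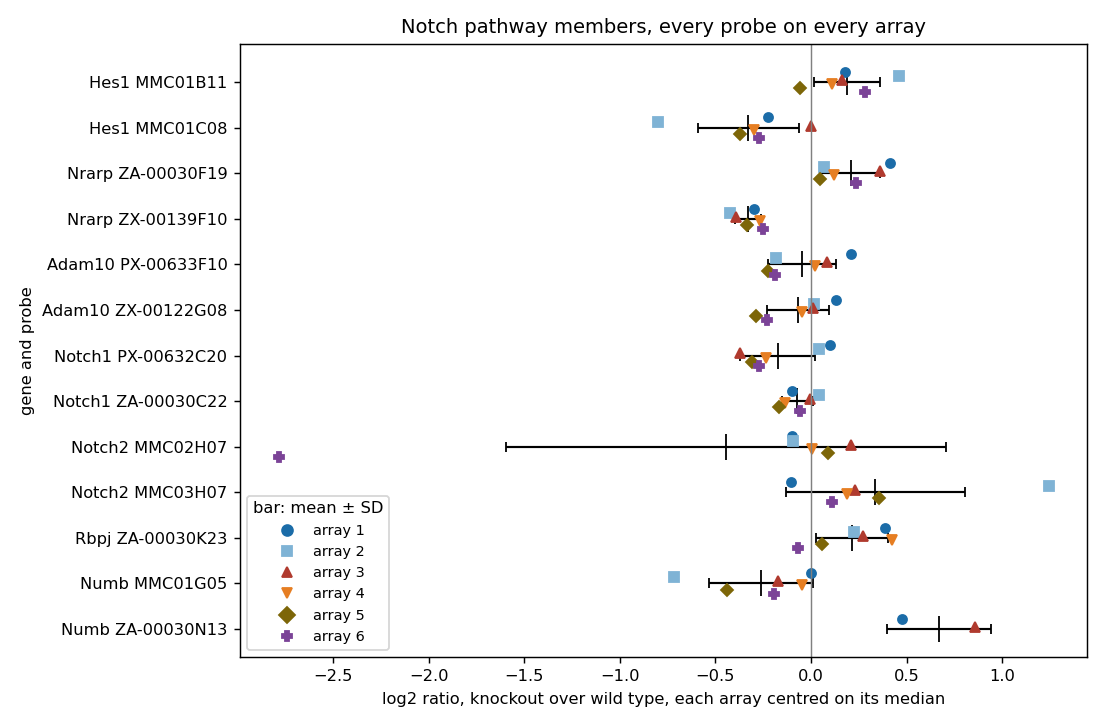
Centred log2 ratio (knockout over wild type) of each Notch pathway probe on each of the 6 arrays, with the mean and SD over arrays as a bar. The Nrarp probe ZX-00139F10 sits between -0.42 and -0.25 on every array, while the Notch2 probe MMC02H07 has 1 array at -2.79.

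Nrarp, a small ankyrin-repeat protein that is switched on by Notch and dampens it in return, was represented by 2 probes that lay on opposite sides of 0. The probe ZX-00139F10, made from clone AK012426, read -0.30, -0.42, -0.39, -0.27, -0.34 and -0.25 on arrays 1 to 6. All 6 arrays were under 0, within a narrow range. The mean log2 ratio was -0.33 ± 0.07 (SD, n = 6 arrays), a signal 1.26-fold lower in the knockout RNA, with a limma adjusted p of 0.039. Its 95% interval as a knockout to wild-type ratio ran from 0.719 to 0.882. Means within the sets were -0.36 on arrays 1 and 2 and -0.31 on arrays 3 to 6.

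The other Nrarp probe, ZA-00030F19 from clone AK004508, read 0.41, 0.07, 0.36, 0.12, 0.05 and 0.24. It was above 0 on all 6 arrays, with a mean of 0.21 ± 0.15 (SD, n = 6) and a limma adjusted p of 0.149. Its mean was 0.31 without centring (limma adjusted p 0.0565) and 0.33 with quantile normalization (0.0567). A sign shared by every measured array was found for 22.4% of all tested probes. The direction for Nrarp as a gene therefore depends on the probe, and the files do not say which part of the transcript each clone covers. The lower probe was past the threshold in 1 of the 6 fits that left out an array, the one without array 2. Its limma adjusted p without another array ranged up to 0.110. Of all probes 1072 passed without array 2, and between 10 and 45 in the other fits of this kind. The mean of the lower probe was -0.23 without centring (limma adjusted p 0.0801) and -0.24 with quantile normalization (0.0536). On arrays 3 to 6 alone it was -0.31 (adjusted p 0.0583).

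The sequence just upstream of the genes is shown for Nrarp, the one member past the threshold, and for Rbpj, the one member whose window holds the core letters of the Rbpj motif. The windows are RefSeq's for build GRCm38.p6 and cover 250 bases before to 50 bases after the start of a transcript. They were given for 9 of the 10 genes, all but Hes1. The motif TGGGAA was searched on both strands. Of all 32851 windows, 25.6% held it, and of the 13 member windows 2 did, both of them of Rbpj and overlapping each other. Capitals mark the matches, of which the Nrarp stretch has none. The Nrarp bases lie at chr2:25180508-25180757 on the plus strand and the Rbpj bases at chr5:53590096-53590345 on the plus strand. In the Rbpj stretch the matches begin 149 and 65 bases before the start, the second on the opposite strand. A match is a description of the letters in this window and not of binding.
Nrarp: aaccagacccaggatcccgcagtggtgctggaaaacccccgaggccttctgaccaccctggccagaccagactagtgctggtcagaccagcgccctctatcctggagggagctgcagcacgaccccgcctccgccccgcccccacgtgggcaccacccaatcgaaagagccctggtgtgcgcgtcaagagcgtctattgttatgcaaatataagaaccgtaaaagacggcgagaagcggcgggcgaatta
Rbpj: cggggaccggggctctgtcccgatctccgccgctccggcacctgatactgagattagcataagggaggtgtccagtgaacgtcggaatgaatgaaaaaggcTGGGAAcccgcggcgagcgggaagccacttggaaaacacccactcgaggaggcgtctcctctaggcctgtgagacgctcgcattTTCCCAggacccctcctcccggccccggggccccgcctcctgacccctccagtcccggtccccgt

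Hes1, a transcriptional repressor and the main Notch effector in pancreatic progenitors, also had 2 probes with means of opposite sign, both annotated to NM_008235. The probe MMC01C08 read -0.23, -0.80, -0.001, -0.30, -0.37 and -0.27 on arrays 1 to 6. Every array was under 0, though array 3 lay almost at 0 and array 2 stood lowest. Its mean was -0.33 ± 0.26 (SD, n = 6), and the limma adjusted p of 0.114 did not pass. The probe MMC01B11 read 0.18, 0.46, 0.16, 0.11, -0.06 and 0.28. It was above 0 on 5 of 6 arrays, with a mean of 0.19 ± 0.17 (SD, n = 6) and an adjusted p of 0.195, and a mean of 0.29 without centring. For MMC01C08 the sets averaged -0.51 on arrays 1 and 2 and -0.23 on arrays 3 to 6, and for MMC01B11 they averaged 0.32 and 0.12. The 95% intervals of the knockout to wild-type ratio were 0.667 to 0.952 at MMC01C08 and 0.994 to 1.31 at MMC01B11.

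**Figure D2:**
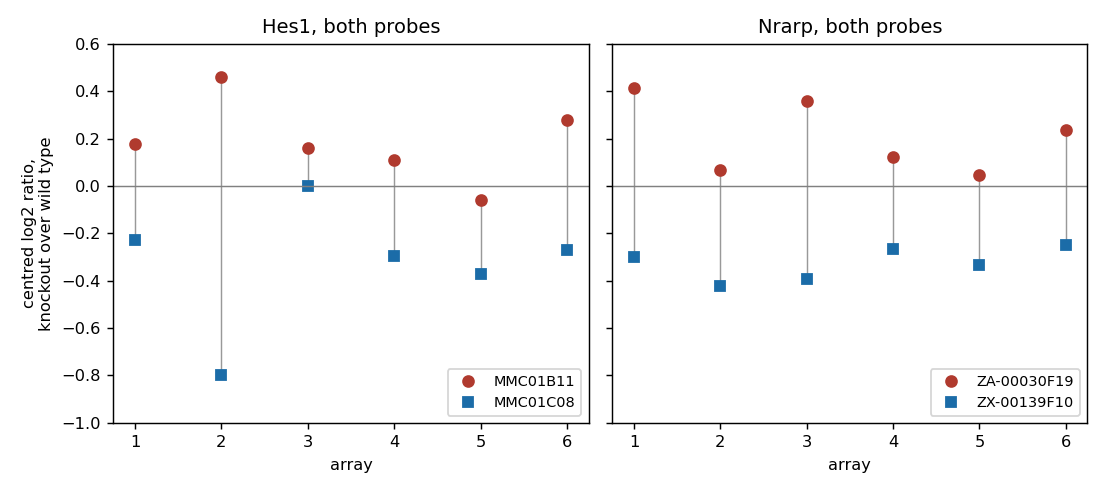
Centred log2 ratios of both probes of Hes1 (left) and of Nrarp (right) on each array, with a grey line joining the 2 probes of an array. In each gene, 1 probe lies above the other on all 6 arrays.

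How far the probes of a gene disagreed was measured as the difference between their ratios on the same array, which does not depend on how the array is centred. For Nrarp, ZA-00030F19 exceeded ZX-00139F10 by 0.71, 0.49, 0.76, 0.39, 0.38 and 0.49 on the 6 arrays. The mean difference was 0.54 ± 0.16 (SD, n = 6), with a 95% interval of 0.30 to 0.77. For Hes1, MMC01B11 exceeded MMC01C08 by 0.41, 1.26, 0.16, 0.41, 0.31 and 0.55. The mean difference was 0.52 ± 0.39 (SD, n = 6), with a 95% interval of 0.14 to 0.89. In both genes the same probe was higher on 6 of 6 arrays.

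These differences were set against those of all 2342 genes with exactly 2 tested probes, in a limma fit adjusted over these genes. The adjusted p was 0.0748 for Nrarp (unadjusted 0.00108) and 0.142 for Hes1 (unadjusted 0.0137), so neither passed. In that fit 0% of all pairs passed, 0 of 2342, while 505 pairs, or 21.6%, had an unadjusted limma p under 0.05. Pairs with a larger absolute difference than Nrarp made up 21.2% of all, and 22.4% were larger than Hes1. The median absolute difference over all pairs was 0.25, and 42.6% of all pairs had means on opposite sides of 0, as 3 of the 5 Notch pairs did. The disagreement of the Nrarp and Hes1 probes was thus larger than that of the median pair and of a size seen in many other genes of this array.

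**Figure D3:**
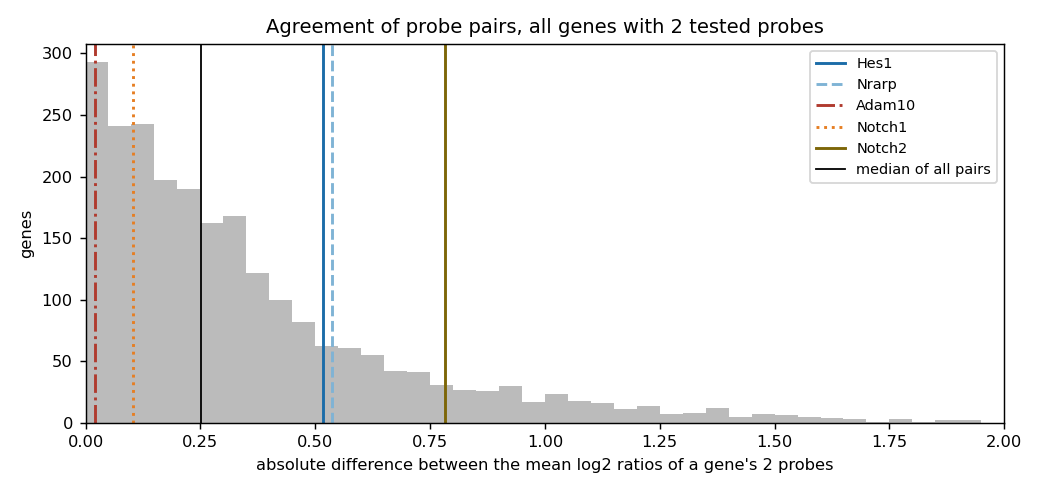
Number of genes by the absolute difference between the mean log2 ratios of their 2 probes, for 2342 genes, with the 5 Notch pathway genes and the median of all pairs as vertical lines. The axis ends at 2, which leaves out 4 genes. Adam10 and Notch1 lie to the left of the median of 0.25, and Hes1, Nrarp and Notch2 lie to its right.

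The receptors gave no call. Notch1, a receptor found in the embryonic pancreatic epithelium, read 0.10, 0.04, -0.37, -0.23, -0.31 and -0.27 at the probe PX-00632C20. Arrays 1 and 2 lay above 0 and arrays 3 to 6 under it, without overlap, with set means of 0.07 and -0.30. The mean over all arrays was -0.17 ± 0.20 (SD, n = 6; limma adjusted p 0.251), but -0.07 without centring and -0.09 with quantile normalization. The second Notch1 probe, ZA-00030C22, read -0.10, 0.04, -0.007, -0.14, -0.17 and -0.06. Its mean was -0.07 ± 0.08 (SD, n = 6; limma adjusted p 0.494), and this sign turned to 0.03 without centring and 0.01 with quantile normalization. The 2 Notch1 probes differed by 0.10, with an interval from -0.35 to 0.15 for PX-00632C20 minus ZA-00030C22.

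Notch2, expressed together with Notch1 in many epithelia, had 2 probes with the same source sequence, D32210. The probe MMC02H07 read -0.10, -0.09, 0.21, 0.007, 0.09 and -2.79. The first 5 arrays lay near 0 and array 6 stood alone far under them. This gave a mean of -0.45 ± 1.15 (SD, n = 6; limma adjusted p 0.505), and without array 6 the mean was 0.02. The probe MMC03H07 read -0.11, 1.25, 0.23, 0.19, 0.36 and 0.11, with array 2 far above the rest. Its mean was 0.34 ± 0.47 (SD, n = 6; limma adjusted p 0.253), and without array 2 it was 0.16. Each extreme value was seen at 1 of the 2 probes only. On array 6 the other probe read 0.11, and on array 2 it read -0.09.

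Adam10, the membrane protease that makes the first cut in a bound Notch receptor, gave ratios close to 0 at both probes. PX-00633F10 read 0.21, -0.18, 0.08, 0.02, -0.22 and -0.19, and ZX-00122G08 read 0.13, 0.02, 0.01, -0.05, -0.29 and -0.23. Both probes had 3 arrays above 0 and 3 under. The means were -0.05 ± 0.18 and -0.07 ± 0.16 (SD, n = 6), with limma adjusted p of 0.744 and 0.61. Without centring they were 0.06 and 0.04, so no sign can be given. The 95% intervals of the knockout to wild-type ratio were 0.843 to 1.11 and 0.836 to 1.09. The mean difference between the probes was 0.02 ± 0.11 (SD, n = 6), smaller than in 94.6% of all probe pairs. It joined 5 arrays at 0.04 to 0.08 with array 2 at -0.20, and without array 2 it was 0.07.

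Rbpj, the DNA-binding partner through which all Notch receptors act, had 1 probe, ZA-00030K23. It read 0.39, 0.23, 0.27, 0.42, 0.06 and -0.07 on arrays 1 to 6. On 5 arrays the ratio was above 0, and on array 6 it was slightly under. The mean was 0.22 ± 0.19 (SD, n = 6), 1.16-fold higher in the knockout RNA, with a limma adjusted p of 0.168, and the interval of the ratio was 1.01 to 1.34. The mean was 0.31 on arrays 1 and 2 and 0.17 on arrays 3 to 6, and over all arrays it was 0.34 with quantile normalization.

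Numb, a membrane-associated adaptor that inhibits Notch and is shared out unequally when some progenitors divide, had 1 tested probe. MMC01G05 read 0, -0.72, -0.17, -0.05, -0.44 and -0.19. No array was above 0, and arrays 2 and 5 stood lowest. The mean was -0.26 ± 0.27 (SD, n = 6), with a limma adjusted p of 0.181. It was -0.17 without array 2, -0.16 without centring and -0.12 with quantile normalization. The remaining probe, ZA-00030N13, had values on arrays 1 and 3 alone, 0.48 and 0.86, and was not tested. Both of these ratios were quotients of whole numbers up to 20 (within 6e-04 in log2), which ratios of very low intensities can take. Over the 12 tested Notch probes 15.3% of ratios were such quotients, against 22.6% over all tested probes.

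**Figure D4:**
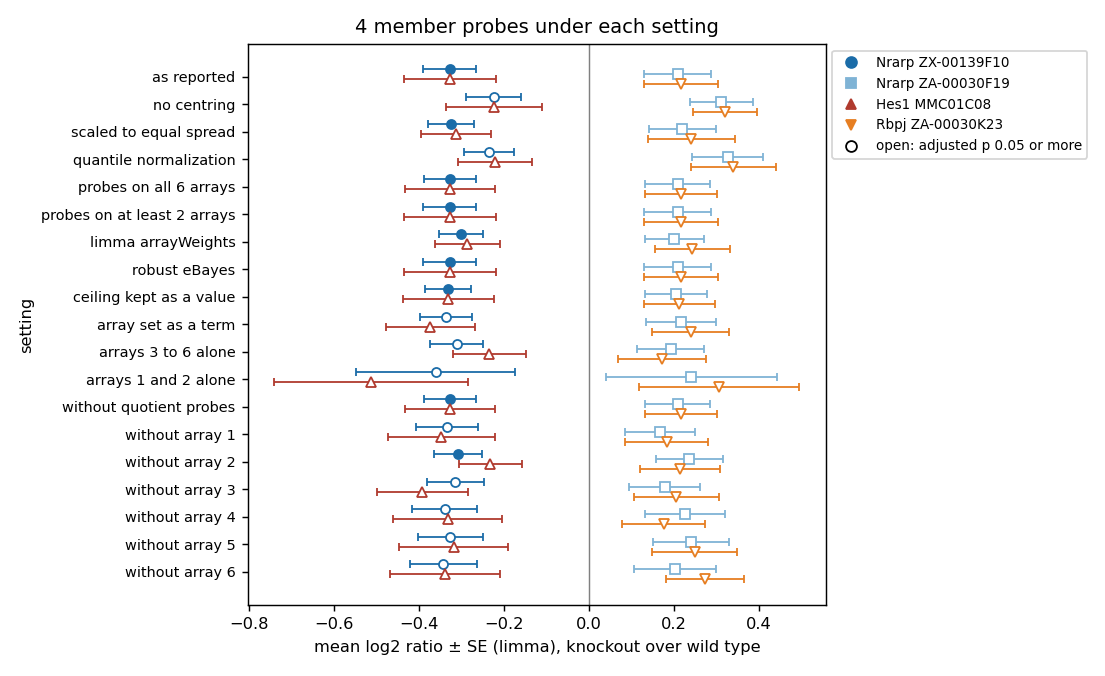
Mean log2 ratio with its limma SE for 4 Notch pathway probes under the reported fit and each alternative, filled where the adjusted p was under 0.05. The probe Nrarp ZX-00139F10 stays under 0 in each setting drawn, between -0.36 and -0.23, but is filled in some of them only. The other 3 probes are open throughout.

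Over the 6 arrays, the ratios of the Nrarp probe ZX-00139F10 correlated most with those of Zfp329, 4930595L18Rik and Copb1, at Pearson's r of 0.990, 0.986 and 0.979. Of 15553 named probes of other genes with values on all arrays, 72 reached an r over 0.9 with it. The Hes1 probe MMC01C08 correlated most with Zdhhc4, Dus2 and Dmac2l, at r of 0.999, 0.997 and 0.996, and 827 probes reached an r over 0.9. These points share 6 arrays and their spread, so the correlations are descriptions only. They do not depend on the mean ratio of a probe. The means were -0.33, 0.12 and 0.003 for the probes named beside Nrarp, and -0.06, 0.008 and -0.29 for those beside Hes1. None of these probes was past the threshold.

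Among 58 other Notch pathway genes, 28 had a tested probe, and 2 of them, or 7.14%, had a probe past the threshold, against 8.21% of all 10818 named genes. There was 1 on each side of 0, where all genes had 3.25% above and 5% under. The balance depends on the scaling, with 3 genes above and 0 under without centring, and 4 above and 0 under with quantile normalization (limma). Tle3, a Groucho-family corepressor recruited by Hes proteins, was above 0 at its only probe, ZX-00137N02. It read 0.26, 0.47, 0.72, 0.17, 0.82 and 0.59, with a mean of 0.51 ± 0.26 (SD, n = 6), 1.42-fold higher, and a limma adjusted p of 0.0464. All 6 arrays were above 0. Ccnc, the cyclin that with Cdk8 marks the Notch intracellular domain for turnover, was under 0 at the probe ZX-00145G21. It read -0.34, -0.38, -0.55, -0.32, -0.37 and -0.19, with a mean of -0.36 ± 0.12 (SD, n = 6), 1.28-fold lower, and a limma adjusted p of 0.0415. Its other probes had means of -0.31 and -0.24, with adjusted p of 0.12 and 0.154. With any 1 array left out neither Tle3 nor Ccnc passed, with limma adjusted p up to 0.123 and 0.112. In these fits the calls among all probes fell from 1166 to between 10 and 45, or to 1072 without array 2. Without array 2 the adjusted p was 0.0635 for Tle3 and 0.051 for Ccnc. Ccnc did not pass without centring (mean -0.26, adjusted p 0.0766). The Tle3 and Ccnc calls were also lost with the array set as a term (0.0659 and 0.0558) and, at these probes, on arrays 3 to 6 alone (0.0657 and 0.0679).

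The next smallest p-values belonged to Hes5 and Hes6. Hes5, a Notch target related to Hes1, was under 0 on all 6 arrays at both of its probes. MMC03H03 read -0.24, -0.21, -0.30, -0.15, -0.40 and -0.30, with a mean of -0.27 ± 0.09 (SD, n = 6; limma adjusted p 0.0614), and MMC02H03 had a mean of -0.29 ± 0.12 (SD, n = 6; limma adjusted p 0.0635). Hes6, which opposes Hes1 and is expressed in endocrine precursors, was at 0.33 ± 0.17 (SD, n = 6; limma adjusted p 0.0641) at the probe ZA-00032A07. This probe passed in 7 of 18 alternatives, among them no centring (0.43, adjusted p 0.0448) and quantile normalization (0.44, adjusted p 0.0317). The Hes5 probe MMC03H03 passed in 4 of 18, and its mean was -0.16 without centring (adjusted p 0.127). The means of the 6 Hes6 probes ranged from -0.26 to 0.52. The median of the gene means was 0.08 for these 28 genes, -0.06 for the 7 Notch members and 0.05 for all named genes. Without centring or with quantile normalization, the median over all probes moved up by 0.10, which is as large as several of these means.

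**Figure D5:**
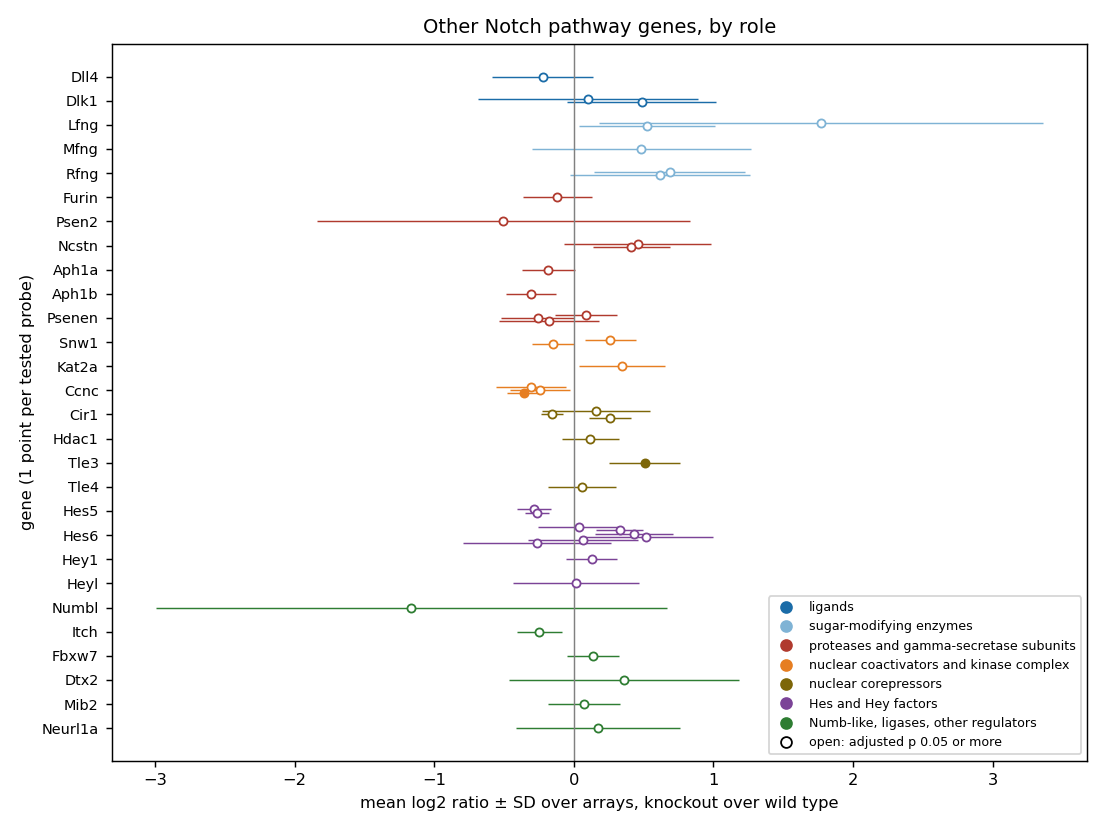
Mean log2 ratio with the SD over arrays for each tested probe of 28 other Notch pathway genes, coloured by role, with filled points for an adjusted p under 0.05. The 2 filled points are Tle3 at 0.51 and Ccnc at -0.36.

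Markers of cell types in which Notch genes are also known to act were measured in the same arrays. Of all named genes, 8.21% had a probe past the threshold, 3.25% above 0 and 5% under. Of endothelial markers, 0 of 6 tested genes passed (limma), with list medians of -0.16 to 0.03 on the arrays. Of mesenchymal and mural markers 1 of 7 passed, Rgs5 of pericytes at -0.51 ± 0.11 (SD, n = 6) at 1 of its 2 probes, the other being at -0.02. The neuronal markers Tubb3 and Elavl4 passed above 0, 2 of 3 tested, with list medians of 0.11 to 0.39. Tubb3 passed at 1 probe, at 0.39 ± 0.08 (SD, n = 6), with its others at 0.34 and -0.05. Elavl4 passed at 1 probe, at 0.90 ± 0.30 (SD, n = 4), with its others at 0.65, 0.52 and -0.02. Of leukocyte markers 2 of 4 passed, Cd53 at 0.71 ± 0.12 (SD, n = 5) and C1qa at -0.40 ± 0.18 (SD, n = 6). Cd53 lacked a value on array 2. Quotients of whole numbers, as described for Numb, made up 80% of the Cd53 ratios and 33.3% of the C1qa ratios. They made up 50% at the Elavl4 probe that passed, against 22.6% over all tested probes. The part of these quotients in the marker means was not tested. Liver markers had 4 of 6 tested genes past the threshold under 0, with list medians of -1.07 to -0.59 on the arrays and Afp from -2.06 to -1.90 at 3 probes and 0.0059 at the remaining one. Among pancreatic epithelial markers 1 of 7 passed, Cpa1 at -0.41, -0.48 and -0.50, while 4 of the 7 gene means lay above 0 and the list medians ran from -0.18 to 0.23 on the arrays. Of the endocrine markers 2 of 8 passed, with list medians of -0.16 to 0.12. Neurog3, the gene Hes1 represses, read -0.73 at the probe that passed and -0.32 at its second probe (limma adjusted p 0.164), and Ins2 passed at 0.52 and 0.54, with its remaining probe at 0.68 (limma adjusted p 0.091). The part of these cell types in the Notch values was not tested, and in whole tissue fewer cells of a type and less RNA per cell cannot be told apart.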

How the data were processed

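Spotted 2-channel arrays measured wild-type and Sox4-/- pancreas RNA. The authors deposited 1 log2 ratio per probe and array. The base was read from the ceiling, 16.61, the log2 of 1e+05. The sources used here do not give how the authors scanned, corrected or normalized the arrays. The deposited columns had medians of -0.006, 0.08, 0.147, 0.072, 0.203 and 0.147.

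Ceiling values (40 to 257 per array) were set to missing, arrays centred on their median, and probes with values on at least 4 arrays kept. Of the probes, 18388 had 1 gene symbol, 66 several and 3434 none. Symbols were updated by Entrez ID in a RefSeq table (GRCm38.p6) for 17786 and kept for 602. Each probe's mean was compared with 0 by limma 3.58.1 (R 4.3.3; lmFit, eBayes, two-sided), and p-values were adjusted by Benjamini-Hochberg across the tested probes, with 0.05 as threshold. The fit was tested on simulated data. Figures used matplotlib 3.10.9. The probe-pair fit was added after seeing the data.

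All members were named at every probe. Other pathway genes were named if past the threshold, filled up to 4 by smallest p, and marker genes if past it. Likeness used the 3 highest Pearson correlations. Further Ccnc, Hes5 and Hes6 probes, and those of marker genes, were named after their values were seen. Members and lists were chosen with earlier results of these data known. Alternatives changed the centring, normalization, filters, weights, variance moderation, ceiling, array set, probe quotients and probes per gene, or left out each array.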

Additional observations from a re-analysis of the deposited data

Results flagged for a closer look

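The 16 probes reported in full and the 5 probe differences were each checked for an array far from the other 5 relative to the whole range, which chance picks in about 1 of 20 groups. The check picked out 4 of these 21. The Notch2 probe MMC02H07 read -2.79 on array 6, while its other arrays lay between -0.10 and 0.21. The Notch2 probe MMC03H07 read 1.25 on array 2, while the rest lay between -0.11 and 0.36. The difference between the Hes1 probes was 1.26 on array 2 and between 0.16 and 0.55 elsewhere. The difference between the Adam10 probes was -0.20 on array 2 and between 0.04 and 0.08 elsewhere. The ratios of all probes were also spread most widely on array 2, whose median absolute deviation was 0.545, while the other arrays had 0.27 to 0.442.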

How the results depend on the processing

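Each ratio already pairs both RNAs of an array, so the test against 0 used that pairing. With only 1 group of ratios, no further pairing was possible. Of the 12 Notch probes, 11 were not past the threshold in the reported fit or under any alternative that gave them a value. The means kept their sign except as follows. Without centring, with quantile normalization and on arrays 1 and 2 alone, Adam10 PX-00633F10 was at 0.056, 0.0703 and 0.0118, and ZX-00122G08 at 0.035, 0.0328 and 0.0723. Notch1 PX-00632C20 was at 0.0718 on arrays 1 and 2 alone, and ZA-00030C22 at 0.0318 without centring and 0.0133 with quantile normalization. Notch2 MMC02H07 ranged from -0.58 to 0.0229 when an array was left out, and was above 0 without array 6. The Nrarp probe ZX-00139F10 was past the threshold in 8 of 18 alternatives, with means from -0.36 to -0.23 and adjusted p from 0.0215 to 0.39.

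The count of Notch probes past the limma threshold was 0 without centring (5 at an unadjusted p under 0.05), 0 with quantile normalization (6), 0 with the array set as a term (5), 0 on arrays 3 to 6 alone (4), 0 on arrays 1 and 2 alone (0), and 0 of the genes with 1 value per gene (2). Leaving out an array gave 0 to 1. For the other Notch pathway genes the count was 4 with arrays scaled to equal spread, with quantile normalization, on probes with all 6 arrays and without probes made mostly of quotients. It was 3 without centring and 7 with array weights. It was 1 with the set as a term (Hes6 at the probe ZX-00125O11, and neither Tle3 nor Ccnc ZX-00145G21), 1 on arrays 3 to 6 alone (Ccnc at the probe ZX-00130N12), 1 with 1 value per gene, and 0 on arrays 1 and 2 alone (6 genes unadjusted), and 0 to 1 when an array was left out. No share of all genes is given for these settings, only counts of all probes. For all probes the count was 1166 in the reported fit, 1258 without centring, 1786 with scaling, 1789 with quantile normalization and 2402 with array weights. It was 1678 on probes with all 6 arrays, 1613 without probes made mostly of quotients and 695 with the set as a term. On arrays 3 to 6 alone it was 599, on arrays 1 and 2 alone 0 (2953 unadjusted), and with 1 value per gene 630 genes. Leaving out an array gave 10 to 1072, and 18, 1072, 45, 11, 10 and 13 without arrays 1 to 6. Beyond the smaller number of arrays or genes in some of these fits, the cause was not tested. Arrays 3 to 6 alone kept only probes measured on all 4. No alternative with 1 value per gene exists for a single probe. The differences between the 2 probes of Nrarp, Hes1, Adam10, Notch1 and Notch2 kept their sign in the 7 alternatives run and none passed in any of them, with adjusted p of 0.12 to 0.154 for Nrarp and 0.152 to 0.232 for Hes1. Signal over background, the measure of depth here, was not analysed.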

Other observations

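The Fringe enzymes Lfng, Mfng and Rfng, which add sugars to Notch receptors in the Golgi and change which ligands they answer, were picked out after their values were seen. Of all 21247 tested probes, 11401 had means above 0. The 5 tested Fringe probes all did, from 0.48 for Mfng to 1.77 for an Lfng probe, with a median of 0.62. None was past the threshold, the smallest limma adjusted p being 0.109, and SDs over arrays ran from 0.49 to 1.59. Of their 28 ratios, 57.1% were quotients of whole numbers up to 20, against 22.6% over all tested probes, and the part of this in the means was not tested. A further Rfng probe, MMC02D01, had values on arrays 1 and 4 alone, 2.01 and -1.81, and was not tested. Subunits of gamma-secretase and other proteases, 6 genes with 9 probes, had 3 means above 0 and 6 under it, from -0.51 to 0.46, and none passed. Dll4 was at -0.22 and Dlk1 at 0.10 and 0.49, and none of these 3 probes passed. The Dlk1 probe at 0.10 averaged -0.78 on arrays 1 and 2 and 0.54 on arrays 3 to 6. The Dlk1 probe at 0.49 lacked a value on array 1, read -0.34 on array 2 and averaged 0.69 on arrays 3 to 6.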
